A study of Gossypium hirsutum with 6 samples.

Results

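The genes described here are a stretch of chromosome D10 of upland cotton (Gossypium hirsutum), namely every identifier from Gh_D10G0184 to Gh_D10G0383 in the authors' table. The stretch was chosen because earlier mapping placed the cotton virescent locus v1 on D10. The rule itself uses no value of these libraries, although it was set with earlier results of these data known. Of the 200 numbers in this range, 183 had a row in the table, out of 65126 rows in all and beside 2029 further rows of D10. RNA sequencing compared 3 libraries of virescent plants with 3 libraries of green wild-type plants, from the first true leaf of each. The virescent plants (line Yt30) carry the genotype label MSmsv1v1 and the wild-type plants msmsv1v1, so both labels are written with the same v1 alleles and differ in the MS symbol. The series concerns a male sterile line, and the labels do not say how the wild type is related to it, whether each library came from its own plant, or at what age the leaves were taken.

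Virescent plants have pale young leaves that green as they grow. Chlorophyll is made in the chloroplast, where magnesium chelatase places magnesium into protoporphyrin IX as the first step that is committed to chlorophyll, and earlier mapping studies of v1 in cotton named a gene for the I subunit of this enzyme as their candidate. Upland cotton is allotetraploid, with chromosomes from an A and a D ancestor, so most genes of D10 have a closely similar copy on the A side. The table does not pair its identifiers with gene names, and 0 of the 183 members matched the RefSeq table at hand, so no member is given a name or a role here and the v1 candidate is not assigned to an identifier. Since the counting is not described, identifiers of near-identical copies, or of overlapping genes on opposite strands, may share reads. In whole leaves, fewer cells of a type and less RNA per cell cannot be told apart.

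The values are FPKM, that is, fragments per kilobase of transcript, scaled to the mapped fragments of each library. They summed to between 1057345 and 1068010 in the virescent libraries and to between 1019041 and 1048966 in the wild-type libraries, and the read depth is unknown. On the first principal component of all tested genes, wild type 2 lay at -24.9, nearer to the virescent libraries than wild type 1 and 3 at -62.4 and -70.3, and virescent 2 lay at 41.3, against 57.0 and 59.3 for the other two. For the members alone the first component held 67.2% of the variance, against 55.9% over all tested genes. It put the virescent libraries at 2.63, 3.17 and 3.32 and the wild-type libraries at -3.81, -1.58 and -3.73. The genotypes thus lay apart, and wild type 2 was again the wild-type library nearest to the virescent ones.

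The stretch held genes of very different levels. Of the 183 members, 117 (63.9%) reached 1 FPKM in at least 3 of the 6 libraries and were tested, against 1321 of 2029 (65.1%) in the rest of D10. The tested members had a median mean level of 5.84 FPKM in virescent leaves and 5.95 FPKM in wild-type leaves, with quartiles of 2.90 and 16.2 FPKM in virescent leaves and 2.91 and 13.1 FPKM in wild-type leaves. In the rest of D10 the medians were 5.57 FPKM in virescent leaves and 5.40 FPKM in wild-type leaves. A mean of at least 100 FPKM was reached by 6 tested members (5.13%), against 3.10% of the tested genes in the rest of D10. The spread between replicates was of similar size in both, with a median coefficient of variation over the tested members of 14.3% in virescent and 16.8% in wild-type leaves, against 15.4% and 14.6% in the rest of D10.

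The other 66 members were low in all libraries. None of them was listed at 0 throughout, but neither was any of the 65126 rows, so this says nothing about the members. Of these 66, 8 reached 1 FPKM in at least 1 library, and the highest single value among them was 3.54 FPKM. At the edge of the filter, Gh_D10G0220 was just inside, at 1.08, 0.76 and 1.21 FPKM in virescent leaves and 0.71, 0.79 and 1.05 FPKM in wild-type leaves. Gh_D10G0271 was just outside, at 1.47, 1.03 and 0.56 FPKM in virescent leaves and 0.83, 0.51 and 0.82 FPKM in wild-type leaves.

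One member outweighed all others. Gh_D10G0369 stood at 11235, 9839 and 12645 FPKM in the virescent libraries and at 13728, 13211 and 12442 FPKM in the wild-type libraries. It ranked 7 among the 65126 genes in every library and made up 79.6% to 83.1% of the summed FPKM of the stretch in virescent leaves and 87.2% to 87.3% in wild-type leaves. Virescent 3 lay above wild type 3, so the genotypes overlapped, and its log2 change was -0.23 ± 0.12 (SE; limma adjusted p = 0.2530). Log2 changes here are virescent minus wild type in log2(FPKM + 1), a scale on which changes of low genes appear smaller. Without this gene the stretch summed to 2288, 2520 and 2581 FPKM in the virescent libraries and 1989, 1928 and 1828 FPKM in the wild-type libraries, with every virescent sum above every wild-type sum. With Gh_D10G0217, described below, taken out as well, the sums were 2009, 2091 and 2050 FPKM in the virescent libraries and 1931, 1850 and 1779 FPKM in the wild-type libraries. As shares of the library totals these were 0.188%, 0.198% and 0.193% in the virescent libraries and 0.190%, 0.178% and 0.170% in the wild-type libraries, which overlapped. With every member kept, the sums were 13523, 12359 and 15227 FPKM in the virescent libraries and 15717, 15139 and 14269 FPKM in the wild-type libraries, which overlapped.

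Among the next most abundant members, 3 did not pass the test. Gh_D10G0259 had 345, 294 and 411 FPKM in virescent leaves and 513, 366 and 348 FPKM in wild-type leaves, and Gh_D10G0378 had 131, 135 and 110 FPKM in virescent leaves and 112, 113 and 124 FPKM in wild-type leaves. Both overlapped between the genotypes, with log2 changes of -0.21 ± 0.19 and 0.10 ± 0.12 (SE; limma adjusted p = 0.4976 and 0.6429). Gh_D10G0283 lay in the middle of the stretch. It had 179, 189 and 213 FPKM in virescent leaves and 169, 194 and 159 FPKM in wild-type leaves, which also overlapped. Its log2 change was 0.15 ± 0.13 (SE; limma adjusted p = 0.4783). The other abundant member, Gh_D10G0217, rose and is described below.

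Between virescent and wild-type leaves, 14 of the 117 tested members differed (12.0%), 11 of them higher and 3 lower in virescent leaves, by limma with an adjusted p under the threshold of 0.05 over all tested genes of the table. The background was close to this, with 11.0% of the 1321 tested genes in the rest of D10 and 10.3% of all 43104 tested genes. By direction, 9.40% of the tested members were called higher, against 6.89% in the rest of D10, and 2.56% were called lower, against 4.09%. The members called higher include Gh_D10G0299, which passed the filter through the virescent libraries alone. Genes of that kind were not taken out of the background either. At an unadjusted p under 0.05 there were 41 members (35.0%), against 27.6% in the rest of D10. None of these shares was tested against the background.

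The genotypes did not overlap in 43 tested members (36.8%), against 33.2% in the rest of D10. In 31 of them (26.5% of the tested members) every virescent library lay above every wild-type library, against 21.0% in the rest of D10. In 12 (10.3%) every virescent library lay below, against 12.1%. The tested members as a whole moved little. Their median log2 change was 0.067, against 0.065 in the rest of D10 and 0.050 over all tested genes, with quartiles of -0.17 and 0.31. The log2 change was above 0 in 67 members (57.3%), against 57.6% in the rest of D10, and below 0 in 50. In 92 of the 117 (78.6%) it was smaller than 0.5 in size, against 79.6% in the rest of D10.

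The counts of called members depended on single libraries. Without virescent 1, 2 or 3 the test called 4, 7 and 11 members, and without wild type 1, 2 or 3 it called 2, 17 and 4. In the same fits the called share of the rest of D10 was 3.79%, 5.83% and 6.66% without virescent 1, 2 or 3, and 0.227%, 12.1% and 1.82% without wild type 1, 2 or 3. When wild type 2 and virescent 2 were both left out, an alternative added once the data had been seen, 14 members were again called, 9 higher and 5 lower, of which 8 were among the 14 reported. That share of 12.0% stood beside 9.01% in the rest of D10 in the same fit.

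**Figure D1:**
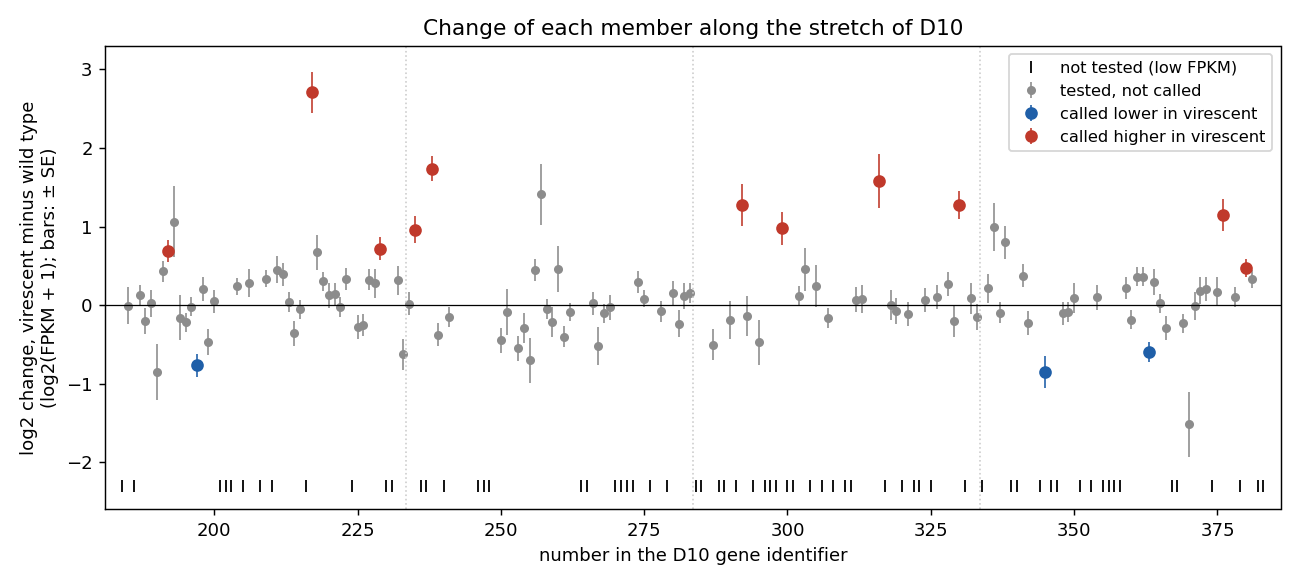
Log2 change (virescent minus wild type, log2(FPKM + 1)) of the 117 tested members against the number in their identifier, with bars of ± 1 standard error, and ticks for the 66 members not tested. Red and blue points are the 11 members called higher and the 3 called lower in virescent leaves, and dotted lines part the stretches of 50 numbers. With all 6 libraries fitted, no called member lies between Gh_D10G0238 and Gh_D10G0292.

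At 2-fold or more on the log2(FPKM + 1) scale, 6 members were called higher (5.13%), against 2.95% in the rest of D10, and 0 were called lower, against 2.12%. The called members Gh_D10G0299 and Gh_D10G0345 were not counted, although their ratios of mean FPKM were 5.20 and 0.480. At an unadjusted limma p under 0.05, 8 members were at least 2-fold higher and 1 at least 2-fold lower, where the rest of D10 had 3.48% higher and 2.57% lower. The count of 0 was not stable, since 1 member was called at least 2-fold lower without virescent 2 and 2 without wild type 2. The count of 6 fell to 2 without wild type 1 and was 9 without wild type 2. With a pseudocount of 0.1 in place of 1, 8 members were called higher and 1 lower.

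Gh_D10G0217 had the largest change of the stretch. It stood at 279, 429 and 531 FPKM in the virescent libraries and at 57.5, 78.3 and 48.3 FPKM in the wild-type libraries, so the lowest virescent library lay far above the highest wild-type library. The means were 413 ± 127 FPKM in virescent leaves and 61.4 ± 15.4 FPKM in wild-type leaves (SD, n = 3 each), a ratio of 6.73. Its log2 change was 2.71 ± 0.26 (SE; limma adjusted p = 0.005050). The call held in all 14 refits, with log2 changes of 2.50 to 2.97 over the libraries left out.

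Gh_D10G0238 had the second largest change. Its values were 35.4, 46.2 and 49.1 FPKM in virescent leaves and 11.5, 14.1 and 11.3 FPKM in wild-type leaves, and the wild-type libraries lay close together. The means of 43.5 ± 7.24 FPKM in virescent leaves and 12.3 ± 1.55 FPKM in wild-type leaves (SD, n = 3 each) gave a ratio of 3.54, and the log2 change was 1.74 ± 0.16 (SE; limma adjusted p = 0.004297). This call also held in all 14 refits, with log2 changes of 1.64 to 1.87 over the libraries left out. These were the only members whose call survived leaving out each of the 6 libraries in turn.

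Gh_D10G0235, close to it at an identifier distance of 3, also rose. It had 27.6, 36.2 and 32.2 FPKM in virescent leaves and 17.5, 12.5 and 18.2 FPKM in wild-type leaves, and its log2 change was 0.96 ± 0.17 (SE; limma adjusted p = 0.01886). The 2 genes between them, Gh_D10G0236 and Gh_D10G0237, were under the filter; the second had 0.12, 0.88 and 0.34 FPKM in virescent leaves and 0, 0 and 0.11 FPKM in wild-type leaves. The call of Gh_D10G0235 was lost without virescent 2 or wild type 1 (limma adjusted p of 0.05056 and 0.06768).

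Of the other called members, 5 rose at low levels. Gh_D10G0316 had 9.70, 5.45 and 2.85 FPKM in virescent leaves and 0.78, 1.14 and 1.62 FPKM in wild-type leaves, a wide spread among the virescent libraries without overlap. Its log2 change was 1.58 ± 0.35 (SE; limma adjusted p = 0.03157), and the call held only without virescent 3 among the libraries left out, with a limma adjusted p between 0.05243 and 0.1219 without each of the other 5. Gh_D10G0330 was more even. It had 3.49, 5.02 and 3.17 FPKM in virescent leaves and 1.02, 0.78 and 1.19 FPKM in wild-type leaves, and changed by 1.28 ± 0.18 on the log2 scale (SE; limma adjusted p = 0.01041). Its call was lost only without wild type 1 among the libraries left out (limma adjusted p = 0.05533).

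Gh_D10G0292 had 6.94, 4.85 and 4.22 FPKM in virescent leaves and 1.47, 2.71 and 0.86 FPKM in wild-type leaves, with wild type 2 nearest to the virescent libraries (log2 change 1.28 ± 0.27, SE; limma adjusted p = 0.02833). Gh_D10G0376 had 4.31, 4.21 and 2.57 FPKM in virescent leaves and 0.75, 1.20 and 1.37 FPKM in wild-type leaves (log2 change 1.15 ± 0.20, SE; limma adjusted p = 0.01771). Neither overlapped between the genotypes. Gh_D10G0299 was the lowest called member, at 2.11, 1.56 and 1.06 FPKM in virescent leaves and 0.27, 0.54 and 0.10 FPKM in wild-type leaves. It was the only tested member that reached 1 FPKM in no library of one genotype, so it passed the filter through the virescent libraries alone, and its log2 change of 0.98 ± 0.21 (SE; limma adjusted p = 0.02989) supports nothing about the stretch. The calls of Gh_D10G0292 and Gh_D10G0299 were lost without virescent 1, virescent 2, wild type 1 or wild type 3 (limma adjusted p between 0.05955 and 0.1080, and between 0.07312 and 0.1079). That of Gh_D10G0376 was lost without virescent 1, wild type 1 or wild type 3 (limma adjusted p between 0.05138 and 0.07625).

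The remaining 3 rising members changed by less than 2-fold at higher levels. Gh_D10G0229 had 95.5, 103 and 87.1 FPKM in virescent leaves and 56.1, 67.3 and 49.9 FPKM in wild-type leaves, and the groups lay well apart (log2 change 0.72 ± 0.14, SE; limma adjusted p = 0.02432). Gh_D10G0192 had 11.5, 11.3 and 14.3 FPKM in virescent leaves and 7.07, 6.70 and 8.0 FPKM in wild-type leaves (log2 change 0.69 ± 0.14, SE; limma adjusted p = 0.02432). Gh_D10G0380 had 130, 118 and 114 FPKM in virescent leaves and 90.5, 91.5 and 78.8 FPKM in wild-type leaves. It is named outside the rule, after its values were seen, and its log2 change of 0.47 ± 0.12 (SE; limma adjusted p = 0.04608) was the smallest of the called members. That call was lost without each of the 6 libraries (limma adjusted p between 0.06053 and 0.1454) and under both rescalings of the libraries (limma adjusted p of 0.06314 and 0.06471). The call of Gh_D10G0229 was lost without virescent 1, virescent 2, wild type 1 or wild type 3, and that of Gh_D10G0192 without virescent 1, virescent 3, wild type 1 or wild type 3 (limma adjusted p of at most 0.09469 and 0.09495).

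The 3 falling members all had less than a 2-fold change on this scale. Gh_D10G0345 fell to 2.72, 3.87 and 2.43 FPKM in virescent leaves, against 5.38, 8.09 and 5.32 FPKM in wild-type leaves, and its log2 change was -0.85 ± 0.20 (SE; limma adjusted p = 0.03692). Gh_D10G0197 had 2.73, 3.92 and 3.58 FPKM in virescent leaves and 6.89, 5.78 and 6.78 FPKM in wild-type leaves, and its log2 change was -0.77 ± 0.15 (SE; limma adjusted p = 0.02184). In both, every virescent library lay below every wild-type library. Gh_D10G0363 had 8.0, 9.05 and 7.84 FPKM in virescent leaves and 14.4, 11.6 and 13.4 FPKM in wild-type leaves, also without overlap (log2 change -0.60 ± 0.13, SE; limma adjusted p = 0.02947). Gh_D10G0345 kept its call only without virescent 2 among the libraries left out, and Gh_D10G0363 only without wild type 2 (limma adjusted p of up to 0.1063 and 0.1120 without the others). Gh_D10G0197 lost it without virescent 1, wild type 1 or wild type 3 (limma adjusted p between 0.06450 and 0.09172).

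**Figure D2:**
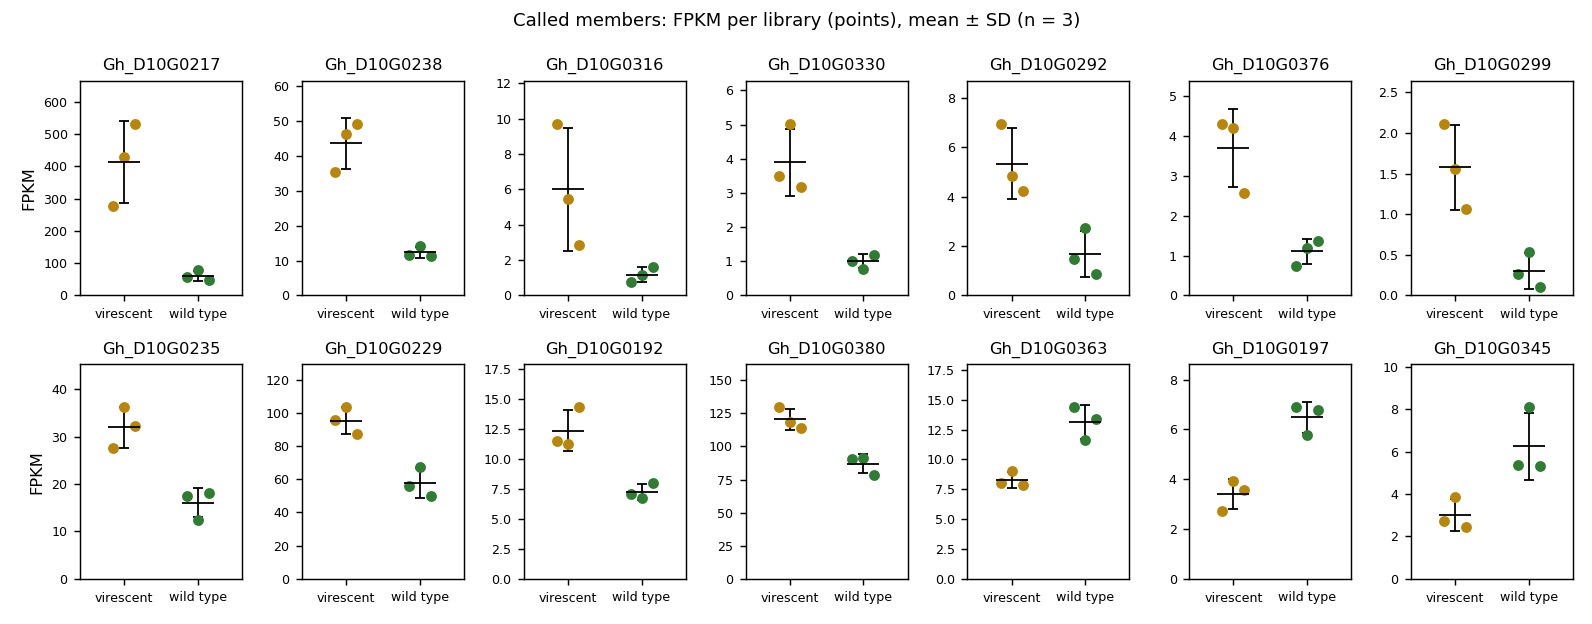
FPKM in each library (points) of the 14 called members, virescent left and wild type right, with mean and SD (n = 3 each), ordered by log2 change; each axis starts at 0 and has its own scale. The genotypes do not overlap in any panel, and Gh_D10G0217 shows the largest difference, at means of 413 FPKM in virescent and 61.4 FPKM in wild-type leaves.

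The largest differences that missed the threshold came with a wide spread in at least one genotype. This follows from how they were picked, since a large change misses the threshold only with a large standard error. Gh_D10G0370, next in number to the most abundant member, had 3.87, 2.63 and 1.55 FPKM in virescent leaves and 16.1, 4.40 and 10.5 FPKM in wild-type leaves, with wild type 2 just above the highest virescent library. Its log2 change was -1.52 ± 0.42 (SE; limma adjusted p = 0.05742), and -1.98 without wild type 2, where it passed (limma adjusted p = 0.01172). Gh_D10G0257 had 31.2, 96.6 and 42.8 FPKM in virescent leaves and 17.3, 24.9 and 14.6 FPKM in wild-type leaves. Virescent 2 stood far above the other virescent libraries, and the log2 change of 1.41 ± 0.39 (SE; limma adjusted p = 0.05926) was 0.95 without it (limma adjusted p = 0.07199). Without virescent 2 and wild type 2 together it passed, at 1.16 (limma adjusted p = 0.02475).

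Gh_D10G0336 had 69.6, 61.9 and 67.7 FPKM in virescent leaves and 19.2, 51.4 and 35.4 FPKM in wild-type leaves, so that the virescent libraries were close together and the wild-type libraries were not. Its log2 change was 0.99 ± 0.31 (SE; limma adjusted p = 0.08001). Gh_D10G0193 had 2.70, 4.09 and 6.23 FPKM in virescent leaves and 0.30, 3.70 and 1.44 FPKM in wild-type leaves, and wild type 2 overlapped with the virescent libraries (log2 change 1.06 ± 0.45, SE; limma adjusted p = 0.1671). Both passed without wild type 2, at log2 changes of 1.31 and 1.53 (limma adjusted p = 0.02103 and 0.03841). Without wild type 1 they were 0.62 and 0.60 (limma adjusted p = 0.1348 and 0.4085).

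**Figure D3:**
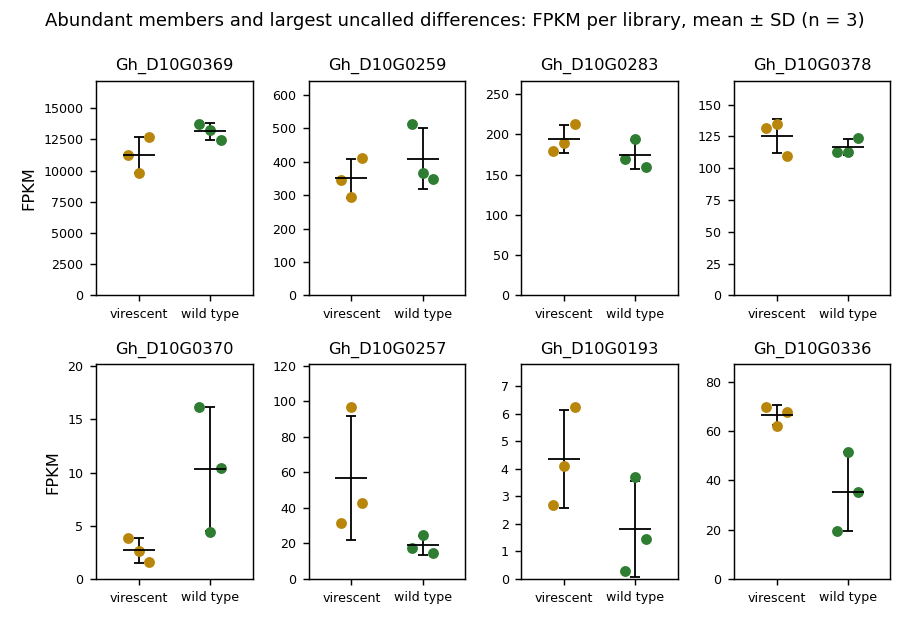
FPKM in each library (points) of 4 of the 5 most abundant members (upper row; the fifth is among the called members) and of the 4 uncalled members with the largest changes (lower row), virescent left and wild type right, with mean and SD (n = 3 each). In the upper row the genotypes overlap, as for Gh_D10G0369 at means of 11240 FPKM in virescent and 13127 FPKM in wild-type leaves; in the lower row only Gh_D10G0193 overlaps.

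With all 6 libraries fitted, called members lay throughout the stretch, apart from a wide gap. In the 4 stretches of 50 numbers, 4 of 37 tested members were called from Gh_D10G0184 to Gh_D10G0233, 2 of 28 from Gh_D10G0234 to Gh_D10G0283, 4 of 23 from Gh_D10G0284 to Gh_D10G0333 and 4 of 29 from Gh_D10G0334 to Gh_D10G0383. The shares were 10.8%, 7.14%, 17.4% and 13.8%, against 11.0% in the rest of D10, and were not tested. The median log2 changes in these stretches were 0.13, -0.068, 0.067 and 0.10. All 6 called members of the middle 2 stretches rose, where 91 of the 145 called genes in the rest of D10 did. Taking these 2 stretches together was not planned. The 6, and the 4 called from Gh_D10G0284 to Gh_D10G0333, include Gh_D10G0299. That gene passed the filter through the virescent libraries alone, so its rise supports nothing here. From Gh_D10G0234 to Gh_D10G0283, 1 member was called lower without wild type 2, and 1 without wild type 2 and virescent 2 together. The widest gap between called members ran from Gh_D10G0238 to Gh_D10G0292, and of the 27 tested members inside it 9 had a log2 change above 0 and 18 below 0. The lowest limma adjusted p among those 27 was 0.05926, and 5 had a log2 change of at least 0.5 in size. The gap was read from these same calls and did not hold in every fit. Inside it, Gh_D10G0256 was called without virescent 3, and Gh_D10G0255 without wild type 2. Without virescent 2 and wild type 2 together, Gh_D10G0255 and Gh_D10G0257 were called.

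In the fit of all 6 libraries, no called members were direct neighbours in number. This did not hold in every fit. Without wild type 2, Gh_D10G0217 and Gh_D10G0218 were both called, and so were Gh_D10G0192 and Gh_D10G0193. Among 74 pairs of tested members with consecutive numbers, the log2 changes had the same sign in 37 pairs and opposite signs in the other 37. No run of 3 or more consecutive members had changes of the same sign and of at least 0.5 in size. At the ends of the tested members, Gh_D10G0185 had 2.31, 2.04 and 0.82 FPKM in virescent leaves and 1.73, 1.65 and 1.57 FPKM in wild-type leaves. Gh_D10G0381, next to the called Gh_D10G0380, had 73.1, 67.8 and 67.2 FPKM in virescent leaves and 57.5, 58.4 and 49.3 FPKM in wild-type leaves. These did not overlap, yet the log2 change of 0.33 ± 0.12 (SE) missed the threshold (limma adjusted p = 0.1164).

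By level, 7 of the 54 tested members with a mean below 5 FPKM were called, 5 higher and 2 lower, against 4.94% higher and 4.78% lower in that class of the rest of D10. The 5 called higher include Gh_D10G0299. From 5 to below 30 FPKM, 3 of 50 were called higher and 1 lower, against 8.13% and 3.70%. At 30 FPKM or more 3 of 13 were called, each of them higher, against 10.5% higher and 2.61% lower in that class of the rest of D10. Of the 14 called members, wild type 2 was the wild-type library nearest to the virescent ones in 8 and wild type 3 in 6, and wild type 1 in 0. Virescent 1, 2 and 3 were nearest to the wild type in 3, 4 and 7.

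Set beside other stretches of D10 of 200 numbers, the first of them cut short by the end of the numbering, the described genes were not at either end of the range. In 12 other consecutive stretches of D10 with at least 100 identifiers, the called share ran from 3.74% to 15.9% of the tested genes, and 4 of them had a larger share than the 12.0% found here. Their median log2 changes ran from -0.016 to 0.12.

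**Figure D4:**
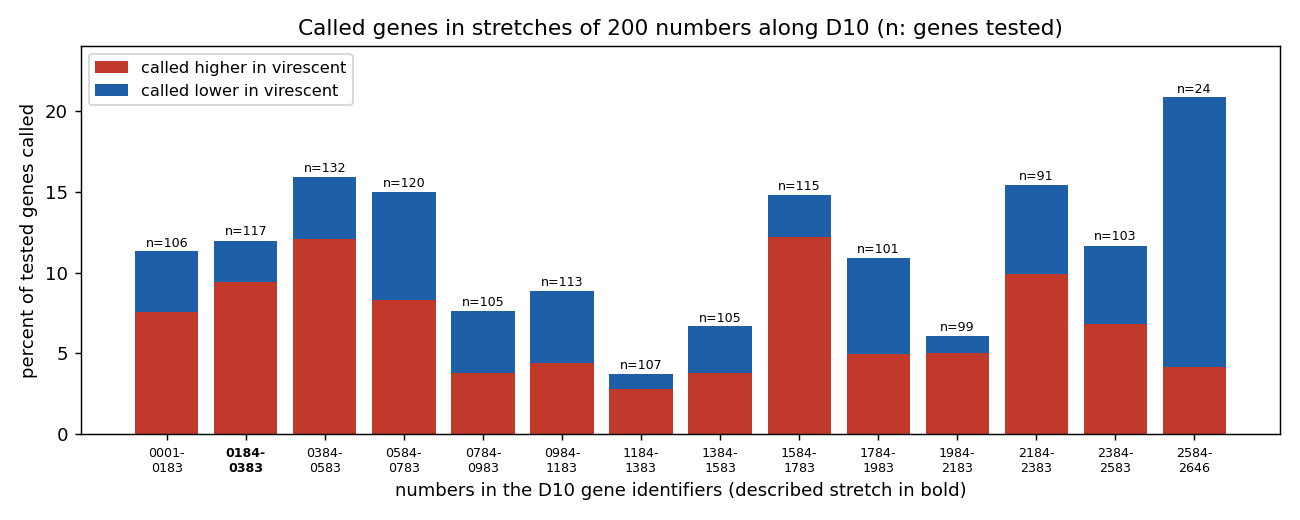
Percent of tested genes called higher (red) and lower (blue) in virescent leaves, in consecutive stretches of 200 identifier numbers along D10 (the first and last are shorter), with the number of tested genes above each bar. The described stretch, in bold, stands at 12.0%, within the range of 3.74% to 15.9% of the 12 other stretches with at least 100 identifiers; the short last stretch has 24 tested genes.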

How the data were processed

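RNA was extracted from leaves, per the labels' protocols. The authors deposited 1 table of FPKM values for 6 libraries, per the file headers, rounded to 2 decimals. How reads were aligned and counted is not given in the sources used here. Per the submitters' processing notes, the build was mm10, which is of the mouse and so cannot have given cotton identifiers. Titles put each library in its group. Positions are identifier numbers, only assumed to follow the chromosome.

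Genes of at least 1 FPKM in at least 3 libraries were tested over the whole table, as log2(FPKM + 1), with limma 3.58.1 in R 4.3.3 (genotype as the only term, mean-variance trend, Benjamini-Hochberg adjustment, threshold 0.05). With unknown depth, no counting interval or detection limit is given, and p-values measure the spread between libraries, which may be technical. Alternatives were a pseudocount of 0.1, no filter, 5 FPKM, 2 rescalings, no trend, a replicate block and each library left out. Named were up to 10 called members per direction, the 5 most abundant, the 4 largest uncalled changes and the first and last tested; others were named after their values were seen. The members and lists were chosen with earlier results of these data known. Planned lists of chlorophyll genes and cell type markers could not be filled without gene names.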

Additional observations from a re-analysis of the deposited data

How the results depend on the processing

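The reported counts were 11 members higher and 3 lower, and 6 and 0 at 2-fold or more. With a pseudocount of 0.1, either rescaling or no trend, the counts stayed within 1.5 times these, except that 1 member was at least 2-fold lower at the pseudocount of 0.1. Without a filter 9 members were higher and 1 lower, from 183 tested. These were 5.46% of the members, against 3.55% in the rest of D10. Of these calls 8 were among those reported. The other 2, Gh_D10G0310 and Gh_D10G0340, were members under the filter and were called higher. At 5 FPKM 7 were higher and 2 at least 2-fold higher, from 65 members tested. In all, 15.4% of those tested were called in either direction, against 13.6% in the rest of D10. Each library left out in turn gave 2 to 13 higher and 0 to 4 lower, and 2 to 9 and 0 to 2 at 2-fold or more. Wild type 2 and virescent 2 left out together, an alternative added once the data had been seen, gave 5 lower, and 2 at least 2-fold lower. With the replicate block 2 were higher, both at 2-fold or more, and 0 lower. Their share was 1.71%, against 1.36% in the rest of D10 and 1.54% of all tested genes. Libraries with the same number deviated from their group means with correlations of 0.081, -0.28 and -0.24. The numbers are therefore not taken as pairs (number 1 alone correlated best with its own). The median log2 change was 0.0235 without a filter and 0.0177 after median-ratio scaling. In the same fits it was 0.030 and 0.0089 in the rest of D10, and 0.028 and -0.0063 over all tested genes. The change of Gh_D10G0185 was -0.17 to 0.26 over the libraries left out, turning to 0.26 without virescent 3 and 0.014 without wild type 1. The 14 called members kept their direction in 191 refits and missed the threshold in 73. Some fits had fewer genes or libraries; beyond that, the cause was not tested. With FPKM alone, what depth limits cannot be stated.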

Other observations

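Among the members under the filter, several had virescent values that all lay above the wild-type values, and a few had values that all lay below. When no filter was set, 2 of those with all values above passed limma. They were singled out after their values were seen. Gh_D10G0340 had 0.54, 0.38 and 0.29 FPKM in virescent leaves and 0.03, 0.04 and 0.06 FPKM in wild-type leaves (log2 change 0.42 ± 0.076, SE; limma adjusted p = 0.04302). Gh_D10G0310 had 0.40, 0.45 and 0.45 FPKM in virescent leaves and 0.17, 0.03 and 0 FPKM in wild-type leaves (log2 change 0.43 ± 0.075, SE; limma adjusted p = 0.04076). Gh_D10G0367, also under the filter and without overlap, held the highest single value among these members. It had 0.87, 3.54 and 1.89 FPKM in virescent leaves and 0.43, 0.57 and 0.65 FPKM in wild-type leaves.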
